A study of Drosophila melanogaster and Drosophila melanogaster
Drosophila virilis and Drosophila virilis with 9 samples.

Results

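The genes slam, nullo, bnk, Sry-alpha and halo are transcribed early from the zygotic genome and act while the fly embryo turns from a syncytium into a sheet of cells. These 5 were chosen by name, and 4 of them were among the 15600 Drosophila melanogaster genes of the single-cell data. Sry-alpha had no row there (not analysed here in single cells), and all 5 had a row in the bulk table of 17492 genes. The data are 7 Drop-seq libraries, in which single cells are caught in droplets with barcoded beads and each captured mRNA is counted once by its unique molecular identifier (UMI), and 1 bulk mRNA-seq library of D. melanogaster. Replicates 1 and 2 held cells of D. melanogaster and D. virilis together (mixed-species libraries), and replicates 3 to 7 held D. melanogaster alone (single-species libraries). All D. melanogaster samples were hand-picked stage 6 embryos of 1 strain, which the labels give as y1 w1118 with the transgenes P{st.2::Gal4} and P{vnd::dsRED}, so every library carried both transgenes, and the D. virilis cells came from 1 other strain. Eggs were laid over 1 h and aged at room temperature, D. melanogaster for 2 h 30 min and D. virilis for 3 h 30 min. Drop-seq cells were dissociated mechanically, strained at 20 µm and fixed in 80% methanol, and the bulk RNA came from live, intact embryos. How many embryos were pooled in a library is not given, and nothing in the labels says that the libraries came from separate embryo collections, so the error between libraries may be partly technical.

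In the early fly embryo nuclei divide without cytokinesis, and in the last syncytial cycle the plasma membrane is drawn down between them, a process called cellularisation. It needs a small set of genes that are among the first to be transcribed from the zygotic genome, whose mRNAs are made in a short burst and are then lost. Slam is needed for membrane growth at the tip of the furrow, Nullo and Sry-alpha stabilise the actin there, Bnk holds back the contraction of the actin and myosin network until the furrows are deep enough, and Halo directs the movement of lipid droplets along microtubules. Stage 6 follows cellularisation and is the onset of gastrulation.

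The 7 libraries held 11329 barcodes, of which 7999 counted as D. melanogaster cells, with at least 1000 UMIs and at least 90% of them on genes of that species. There were 829 to 1568 cells and 7134003 to 19611977 UMIs on genes per library, 81964236 in all, and the median cell had 1936 to 6330 UMIs. A share of cells with a UMI was read in the 5102 cells with at least 3000 UMIs, each thinned to 3000 UMIs. Across all libraries 6 barcodes occurred in more than 1 library, at most 5 of them in any pair of libraries. The bulk library had 6608592 reads on genes.

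The members were far apart in level at this stage, with halo well above the furrow genes in every library. Levels are given as CPM (counts scaled to 1 M UMIs on genes) over all cells of a library. The slam gene lies on chromosome 2L at 6372388 to 6377284 on the plus strand in the BDGP6.54 annotation and has 2 transcripts, the longest of 4117 nt. It stood at 1.40, 2.76, 2.24, 2.40, 2.11, 3.86 and 1.69 CPM in replicates 1 to 7, from 192 UMIs in all, a mean of 2.35 ± 0.800 (SD, n = 7). The nullo gene, on chromosome X at 7049476 to 7050321 with a single exon of 846 nt inside an intron of CG12541 on the opposite strand, stood at 0.841, 0.713, 0.357, 0.145, 0.889, 0.113 and 0.322 CPM. That is a mean of 0.483 ± 0.326 CPM (SD, n = 7) from 36 UMIs, with 1 to 8 UMIs in a library, so its order between libraries is within counting error.

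The bnk gene lies on chromosome 3R at 31193362 to 31194389 as a single exon of 1028 nt within mesh, which is on the opposite strand, and shares no exonic base with it. It stood at 1.40, 2.67, 1.53, 2.40, 1.44, 1.70 and 1.77 CPM, a mean of 1.85 ± 0.496 (SD, n = 7) from 153 UMIs. The halo gene, on chromosome 2L at 1517533 to 1518148 on the minus strand with a single exon of 616 nt, stood at 66.7, 63.6, 63.9, 54.6, 55.2, 56.4 and 63.8 CPM. Its mean of 60.6 ± 5.02 CPM (SD, n = 7) rests on 4981 UMIs, and 1752 of the 15600 genes had a higher mean.

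**Figure D1:**
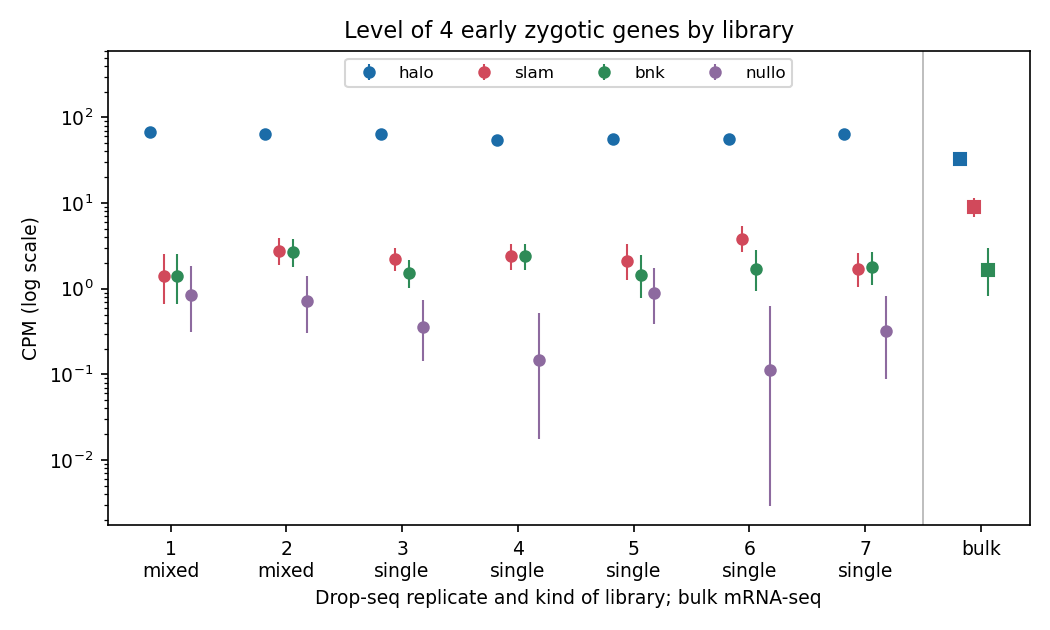
CPM on a log scale of halo, slam, bnk and nullo in the 7 Drop-seq libraries (circles; 1 and 2 mixed-species, 3 to 7 single-species) and in the bulk library (squares), with exact Poisson 95% intervals that cover counting error only. The halo points lie between 54.6 and 66.7 CPM in Drop-seq, and nullo, with 0 bulk reads, has no bulk point.

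Per kilobase of the longest transcript, the mean level was 98.4 ± 8.14 CPM for halo, 1.80 ± 0.482 for bnk, 0.571 ± 0.194 for slam and 0.571 ± 0.385 for nullo (SD, n = 7). Libraries of halo and bnk did not overlap on this scale, nor did those of bnk, from 1.36 to 2.60, and slam, from 0.340 to 0.937. On this scale the levels of slam and nullo did not differ beyond their spread. In CPM, without division by length, slam (1.40 to 3.86) lay above nullo (0.113 to 0.889) with no overlap of libraries. Counts from the 3′ end, as in Drop-seq, need not grow with transcript length.

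In the bulk library slam had 59 reads, 8.93 CPM (95% exact Poisson interval 6.80 to 11.5), bnk had 11 reads, 1.66 CPM (0.831 to 2.98), and halo had 214 reads, 32.4 CPM (28.2 to 37.0). No read was counted for nullo, which allows up to 0.454 CPM at 3 counts. The bulk library was unstranded, so reads of bnk cannot be told apart from unspliced reads of mesh, which had 39 reads of its own. Sry-alpha was listed at 0 reads, and so was its neighbour Sry-beta. In BDGP6.54 the 2 genes span the same 30039719 to 30043071 of chromosome 3R on the plus strand, and all 3300 exonic bases of Sry-alpha are also exonic bases of Sry-beta. Whether this overlap is in the annotation behind the counts is not given in the sources used here, and no level is drawn from the 0.

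The log2 ratio of Drop-seq over bulk, each as CPM + 1, was 0.88 ± 0.119 for halo (SD, n = 7), above 0 in 7 of 7 libraries, and -1.60 ± 0.330 for slam, below 0 in 7 of 7. For bnk it was 0.08 ± 0.239, above 0 in 4 of 7. The median over 8786 genes with at least 1 CPM in either assay was -0.75, with the 5th and 95th percentiles at -2.88 and 1.41, so all 3 genes lay inside the range of most genes. There was 1 bulk library and therefore no test, and as all 7 ratios share its value, their SD covers the Drop-seq libraries alone. The assays also count unlike things, UMIs from the 3′ end and reads. The longest transcripts of halo (616 nt) and slam (4117 nt) differ in length, and the part of length in these ratios was not tested. In bulk, fewer cells with a transcript and less of it per cell cannot be told apart.

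The 4 members present in the Drop-seq tables were each found in a minority of cells. After thinning, halo had a UMI in 693 of 5102 cells, and the share was 14.1%, 13.6%, 11.9%, 12.2%, 14.1%, 14.1% and 17.0% in replicates 1 to 7 (mean 13.9% ± 1.65, SD, n = 7). The share was 0.757% ± 0.432 for slam (38 cells), 0.699% ± 0.264 for bnk (33 cells) and 0.120% ± 0.134 for nullo (7 cells). Without thinning, 1997 of 7999 cells (25%) had a halo UMI, 149 (1.86%) a slam UMI, 107 (1.34%) a bnk UMI and 30 (0.375%) a nullo UMI.

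D. virilis cells of replicates 1 and 2, which can hold D. melanogaster UMIs only from free RNA, mixed droplets or misassigned reads, gave the background. Of 1806 such cells thinned to 3000 UMIs, 4 (0.221%, exact binomial 95% interval 0.0604 to 0.566) had a halo UMI, 2 (0.111%, 0.0134 to 0.399) a slam UMI, and none a bnk or nullo UMI, which allows a share of up to 0.166%. Their median depth was 5591 and 9344 UMIs in replicates 1 and 2, beside 6382.5 and 8938 for D. melanogaster cells. The halo share lay above this background in all 7 libraries, whereas the share of nullo lay within the background's limit of 0.166% in 5 of 7 libraries. The exact binomial upper limit of the nullo background, 0.204%, also covered replicate 3 (0.190%). For slam the shares in replicates 1 (0.130%) and 7 (0.329%) lay within its background interval.

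Among the thinned cells 557 had 1 halo UMI, 102 had 2, 25 had 3 and 9 had 4 to 8. The variance of the halo count was 1.43 times its mean of 0.172 UMIs per cell. In full counts 28 cells with 2 or more bnk UMIs held 74 of the 153 (48.4%), and 21 such cells of slam held 64 of 192 (33.3%). A single cell held up to 34 halo, 11 slam, 6 bnk and 3 nullo UMIs.

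The members were seldom met in the same cell. In thinned cells slam and halo were found together in 5 cells where independence within libraries gives 5.04, and bnk and halo in 3 where it gives 4.6. The mean log2 odds ratio over libraries was 0.41 ± 1.24 for slam with halo and -0.01 ± 0.961 for bnk with halo (SD, n = 7, with 0.5 added to each count). Neither differed from 0 beyond its spread. Slam and bnk met in 2 cells where independence gives 0.243, and nullo and halo in 3 where it gives 0.929, counts too low for an odds ratio that does not depend on the 0.5 added.

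Where in the embryo the mRNA of the members was found was read from cells gated by patterning genes. A thinned cell was ventral if the mesoderm factors twi and sna were both present, and dorsal if 2 or more genes of the dorsal ectoderm and amnioserosa were, from tup, ush, zen and the Dorsocross genes Doc1, Doc2 and Doc3. Cells with genes of both sides were left out. Full counts were summed per library and gate, for 443 ventral and 699 dorsal cells. In replicates 1 to 7, halo stood at 30.6, 15.3, 22.9, 9.58, 11.9, 8.97 and 19.6 CPM in ventral cells. In dorsal cells it stood at 127, 110, 124, 97.4, 94.2, 101 and 128 CPM. Every dorsal value was more than 4 times its library's ventral value, and the groups did not overlap.

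The log2 change of halo, ventral over dorsal, was -2.78 (SE 0.127, adjusted p = 2.71e-14, edgeR quasi-likelihood test with the library as a block and Benjamini-Hochberg adjustment over all genes), with means of 17.0 ± 7.91 and 112 ± 14.4 CPM (SD, n = 7). At an FDR of 0.05, 1510 of 5512 genes passed (27.4%), 794 of them lower in ventral cells (14.4%), and halo, the single member that passed the filter on low counts, was one of these. Ventral cells were deeper, with library medians of 8004 to 26647 UMIs against 5775 to 10555. In sums of thinned counts, which have equal depth per cell, the change of halo was -3.04. The share of thinned cells with a halo UMI was 3.82% ± 3.32 in the ventral and 21.8% ± 3.54 in the dorsal gate (SD, n = 7). Markers of pole cells moved with the gates, pgc standing at 8.56 ± 5.26 CPM in ventral and 67.8 ± 47.4 CPM in dorsal cells, and 3 of the 4 pole cell markers tested were lower ventrally. In gated cells with no pgc UMI, an alternative chosen after seeing the data, the change of halo was -2.91 (edgeR adjusted p = 2.54e-15). Head and terminal markers moved with the gates as well. All 3 head markers tested and 5 of 6 posterior terminal and gut markers were lower ventrally, and none was higher. For example, oc stood at 6.90 ± 5.06 against 55.3 ± 17.3 CPM and fkh at 14.4 ± 4.43 against 50.3 ± 19.5 CPM. Their part in the change of halo was not tested.

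The furrow genes gave few UMIs in these gates. Slam had 10 UMIs in ventral and 28 in dorsal cells, 1.07 CPM (exact Poisson 95% interval 0.511 to 1.96) and 2.85 CPM (1.89 to 4.12). Nullo had 1 and 10 UMIs, 0.107 CPM (0.00270 to 0.594) and 1.02 CPM (0.488 to 1.87), and bnk had 11 and 10, 1.17 CPM (0.586 to 2.10) and 1.02 CPM (0.488 to 1.87). Fitted without the filter by edgeR, neither passed, with log2 changes of -1.41 for slam (SE 0.616, adjusted p = 0.138) and -2.35 for nullo (SE 1.42, adjusted p = 0.422). A difference of slam or nullo between the gates was not detectable at this depth.

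Of 12 other early zygotic genes 7 were tested between these gates, of which 5 were lower and 1 higher in ventral cells, with a median log2 change of -1.06 beside 0.01 over all genes. Z600, the mitotic inhibitor also called frühstart, fell by 4.15 on the log2 scale with an SE of 0.135 (edgeR adjusted p = 9.81e-17), and stood at 12.1 ± 6.59 CPM in ventral against 221 ± 42.3 CPM in dorsal cells. The exception was trbl, which promotes the decay of String in ventral cells, with a log2 change of 0.70 (SE 0.0869, adjusted p = 1.07e-06). All 20 genes of a list of furrow and cortex machinery were tested: 4 were higher and 7 lower in ventral cells, with a median of -0.08. Of these baz, a polarity protein, stood at 47.8 ± 10.8 CPM in ventral and 128 ± 24.3 CPM in dorsal cells, a log2 change of -1.44 (SE 0.0857, adjusted p = 3.73e-12). Patj, a partner of Slam at the furrow, changed by -0.93 (SE 0.246, adjusted p = 0.00635). Of 6 genes of lipid-droplet transport 2 were tested, and klar, a regulator of the motors that move the droplets, was higher in ventral cells by 0.66 (SE 0.105, adjusted p = 3.65e-05), opposite in direction to halo. Of 10 gastrulation genes 7 were higher in ventral cells and none lower, among them fog, the secreted trigger of apical constriction, at 65.7 ± 21.1 against 20.5 ± 6.48 CPM (log2 change 1.57, SE 0.165, adjusted p = 7.89e-08).

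Along the anterior-posterior axis halo did not pass the test. Cells with 2 or more of the posterior genes cad, Abd-B and byn and none of the head genes numbered 58, and cells with 2 or more of the head genes btd, hbn, ems and oc and none of the posterior genes numbered 73. The halo level was 58.9 ± 20.4 CPM in posterior cells of the 6 libraries with at least 5 such cells and 97.0 ± 55.2 CPM in anterior cells of 7. The log2 change, posterior over anterior, was -0.60 (SE 0.316, edgeR adjusted p = 0.535) in 6 libraries, where 51 of 1640 genes (3.11%) passed. Slam had 8 UMIs in posterior and 1 in anterior cells, bnk 1 in each, and nullo 1 and 0, all too few to compare.

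**Figure D2:**
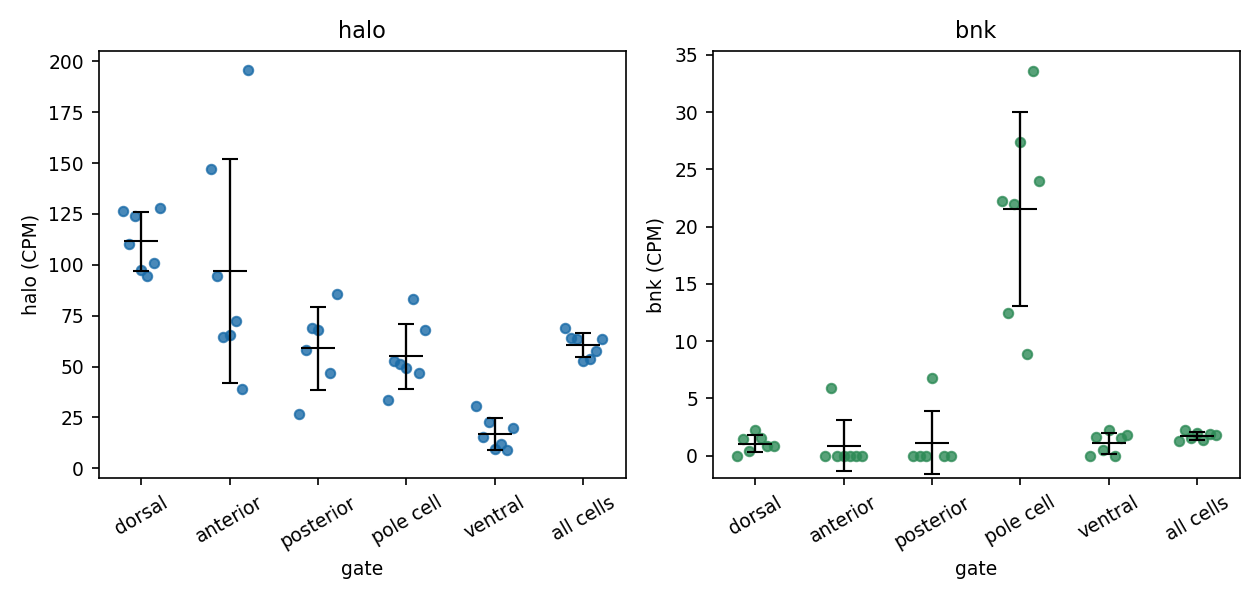
CPM of halo (left) and bnk (right) by gate, 1 point per Drop-seq library with at least 5 cells in the gate, with the mean and SD as black bars. The halo points of the ventral gate (8.97 to 30.6 CPM) lie below all dorsal points (94.2 to 128), and the bnk points of the pole-cell gate (8.90 to 33.6 CPM) lie above all other points.

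In order of mean level halo stood at 112 CPM in the dorsal, 97.0 in the anterior, 58.9 in the posterior, 55.0 in the pole-cell and 17.0 in the ventral gate. Of these neighbours only the pole-cell and ventral gates had ranges that did not overlap, with the pole-cell value higher in 7 of 7 libraries. That separation held for a pole-cell gate of at least 3 pgc UMIs. In cells with at least 10 pgc UMIs halo ranged from 0 to 77.3 CPM over libraries and overlapped the ventral range. There it stood at 0 CPM in replicate 1 and 15.1 CPM in replicate 3, under their ventral values of 30.6 and 22.9 CPM. Dorsal exceeded anterior in 5 of 7 libraries, anterior exceeded posterior in 3 of 6 and posterior exceeded pole cells in 4 of 6, all with overlapping ranges.

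Pole cells, the germ line precursors, form at the posterior pole before the somatic cells and by their own budding. They were gated as cells with at least 3 UMIs of pgc, a repressor of transcription in the germ line, and compared with cells that had none. The gate took 178 of 5102 cells and bnk stood out in it. In replicates 1 to 7 bnk had 4, 4, 12, 10, 3, 5 and 12 UMIs in pole cells, or 22.2, 12.4, 22.0, 27.4, 8.90, 33.6 and 24.0 CPM. The mean was 21.5 ± 8.47 CPM in pole cells and 1.1 ± 0.431 CPM in cells without pgc (SD, n = 7), and bnk was higher in 7 of 7 libraries. The gate held 50 of the 133 bnk UMIs of the cells with at least 3000 UMIs (37.6%).

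The log2 change of bnk, pole cells over others, was 4.19 (SE 0.384, edgeR adjusted p = 1.24e-09). In this comparison 2775 of 6525 genes passed (42.5%), 1379 of them higher (21.1%), so a pass by itself was common. Of the 2 members tested bnk was called and halo was not. In cells without pgc, bnk (1.11 CPM, pooled) lay under slam (1.89 CPM), which the filter on low counts left out. Thus bnk was tested only because of its level in the gate, and its call is no separate support for that level. Fitted without the filter by edgeR, bnk changed by 4.09 (SE 0.385, adjusted p = 1.85e-24). The halo level was 55.0 ± 16 CPM in this gate of at least 3 pgc UMIs and 60.1 ± 6.92 CPM in cells without pgc (edgeR log2 change -0.15, SE 0.165, adjusted p = 0.490). Of the gate's 138 halo UMIs, 78 came from 65 cells with 3 to 9 pgc UMIs. Slam had 6 UMIs in the gate, 2.50 CPM (exact Poisson 95% interval 0.918 to 5.45), and nullo 5 UMIs, 2.09 CPM (0.677 to 4.87), against 0.349 CPM (0.224 to 0.519) in cells without pgc. Without the filter, nullo changed by 2.26 in edgeR (SE 0.942, adjusted p = 0.0755) and by 2.61 in DESeq2 (adjusted p = 0.0142), so its call depended on the test.

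The 5 pole cell markers tested beside pgc were all higher in the gate, among them nos, at 225 ± 80.6 against 0.677 ± 0.339 CPM, and osk, at 25.8 ± 16.4 against 1.23 ± 0.441 CPM. Markers of other cell types moved with the gate as well, in both directions, and their part in the result for bnk was not tested. Of 7 posterior terminal and gut markers 4 were higher and 1 lower: fkh stood at 168 ± 91.3 against 42.7 ± 9.33 CPM, hkb and srp were higher too, cad stood at 25.7 ± 12.3 against 5.37 ± 1.33 CPM, and Abd-B was lower. Both yolk nuclei markers tested, sisA and srp, were higher. Of 10 dorsal ectoderm and amnioserosa markers 5 were lower and peb was higher, at 172 ± 142 against 50.1 ± 21.4 CPM, and of 4 head markers tested tll was higher and 2 were lower. Markers of the mesoderm (7 of 7) and of the ventral neurogenic ectoderm (7 of 8) were lower. Mitochondrial UMIs made up 9.99% to 13.8% of the gate's UMIs and 11.1% to 14.1% of those of all cells. Median depth was 4575.5 to 14692 UMIs in the gate's libraries and 6382.5 to 11991 in all cells.

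The rise of bnk lay with the cells richest in pgc. In bins chosen after the data were seen, bnk had 76 UMIs in 4613 cells with no pgc UMI, 1.11 CPM (exact Poisson 95% interval 0.871 to 1.38), and 7 UMIs in 311 cells with 1 or 2, 1.31 CPM (0.526 to 2.70). No bnk UMI was found in 65 cells with 3 to 9 pgc UMIs, which allows up to 2.67 CPM. There were 3 UMIs in 29 cells with 10 to 19, 6.26 CPM (1.29 to 18.3), and 47 UMIs in 84 cells with 20 or more, 59.2 CPM (43.5 to 78.7). All 50 bnk UMIs of the pole-cell gate therefore lay in its 113 cells with at least 10 pgc UMIs.

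Over the same bins halo stood at 60.4, 64.0, 69.4, 77.1 and 29.0 CPM, with an interval of 18.4 to 43.5 in the last bin, the lowest of the 5. With the gate raised to 10 pgc UMIs, an alternative added after seeing the data with 6 libraries, the log2 change was 4.96 for bnk (SE 0.407, edgeR adjusted p = 6.83e-16) and -0.67 for halo (SE 0.254, adjusted p = 0.0205), where the median of all genes tested was -0.34. In this setting 3793 of 6499 genes passed, 1402 of them higher and 2391 lower, so a call in either direction was common. In the 7 libraries halo stood at 0, 51.1, 15.1, 63.1, 49.0, 35.4 and 77.3 CPM in cells of this kind and bnk at 57.2, 17.0, 45.2, 90.2, 21.0, 44.3 and 35.7 CPM, from 3 to 12 bnk UMIs each.

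**Figure D3:**
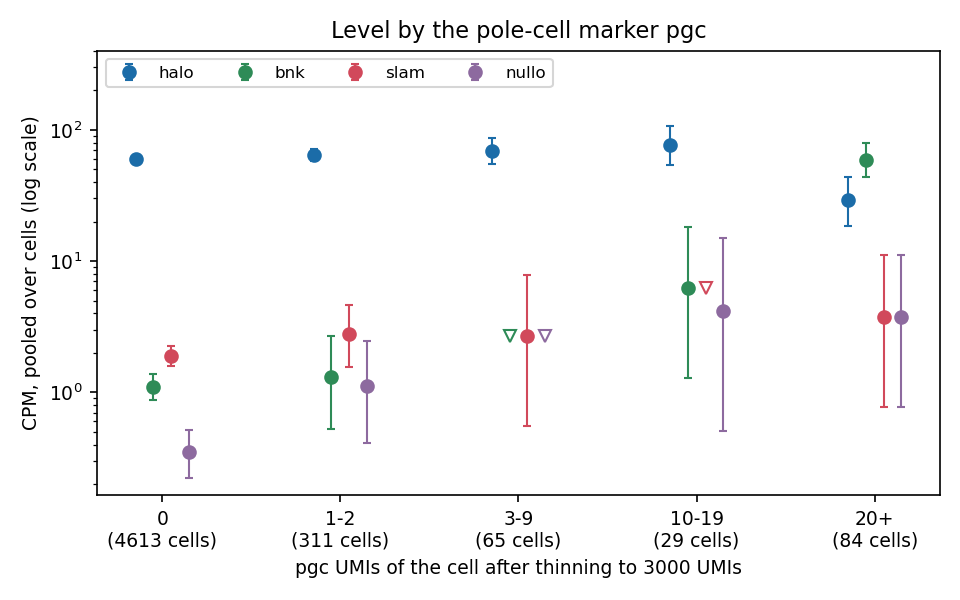
CPM on a log scale of the 4 genes, pooled over cells of the 7 libraries, by the number of pgc UMIs in a cell thinned to 3000, with exact Poisson 95% intervals that cover counting error only and open triangles where no UMI was found, at the value of 3 counts. The bnk point rises to 59.2 CPM in cells with 20 or more pgc UMIs while the halo point falls to 29.0.

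Genes around the members were also compared between pole cells, as gated by at least 3 pgc UMIs, and cells with none. Of 10 other early zygotic genes tested 4 were higher and 4 lower in pole cells, with a median log2 change of -0.35 beside -0.09 over all genes. The gap genes hkb, at 124 ± 33.9 against 27.7 ± 5.82 CPM (log2 change 2.16, SE 0.169, edgeR adjusted p = 6.31e-11), and tll, at 27.8 ± 16.2 against 8.14 ± 2.56 CPM (1.78, SE 0.322, adjusted p = 6.50e-05), were among the higher. Of the 20 furrow and cortex genes 3 were higher and 6 lower, with Nrt, a cell adhesion protein, at 526 ± 170 CPM against 1039 ± 138 (log2 change -1.12, SE 0.0963, adjusted p = 3.76e-10). All 6 genes of lipid-droplet transport were tested, and 4 were higher and none lower, with a median log2 change of 3.30. Jabba, which anchors histones on lipid droplets, stood at 70.5 ± 27.5 against 4.76 ± 0.906 CPM (log2 change 3.77, SE 0.226, adjusted p = 3.10e-13). Khc, the kinesin heavy chain, stood at 38.9 ± 9.67 against 3.28 ± 0.859 CPM (3.45, SE 0.267, adjusted p = 4.54e-11). BicD, an adaptor of the dynein motor, and the droplet coat protein Lsd-2 changed by 3.15 and 4.42, whereas klar, at 65.8 ± 18.2 against 51.1 ± 10.04 CPM, did not pass (adjusted p = 0.180).

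Cells with a UMI of at least 1 member were set against cells with none, to ask which other genes go with the members in single cells. Counts of cells thinned to 3000 UMIs were summed per library, for 759 and 4343 cells, and the members themselves were left out. Of the 759 cells 693 had a halo UMI, so the comparison is mainly one by halo. At an FDR of 0.05, 138 of 4276 genes passed (3.23%), 65 of them higher and 73 lower in cells with a member, and 124 of the 138 were also called when cells were chosen by halo alone.

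The 8 genes named as higher were CG43184, Ance, Nek2, bnl, zen2, kay, lov and Doc3. Naming required 1 direction in every library, which left out C15, with a larger log2 change of 1.25 and 6 of 7 libraries higher. Of the 8, CG43184 had the largest change, 1.06 (SE 0.121, edgeR adjusted p = 4.37e-10), at 116 ± 42.2 against 55.6 ± 7.72 CPM (SD, n = 7). Ance, a dorsally expressed peptidase, stood at 101 ± 27.9 against 49.0 ± 8.65 CPM, Doc3, a T-box factor of the amnioserosa, at 108 ± 24.5 against 57.8 ± 7.87 CPM, and bnl, a ligand of the fibroblast growth factor family, at 107 ± 29.6 against 55.4 ± 8.23 CPM. Nek2, a kinase of the centrosome cycle, had a log2 change of 0.99 and zen2, the paralogue of the dorsal patterning gene zen, one of 0.92. The transcription factors kay and lov changed by 0.91 (SE 0.250, adjusted p = 0.0191) and 0.85 (SE 0.221, adjusted p = 0.0113), and neither passed with DESeq2 or without the library block. The call was also lost for kay at 5000 UMIs and without replicate 1 or 6. It was lost for lov without replicate 4 or 5 and for zen2 without replicate 3.

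The 8 genes named as lower were CadN, CR45361, Act87E, zfh1, if, Mdr49, ltl and ventrally-expressed-protein-D. CadN, the N-cadherin of the mesoderm, stood at 27.4 ± 11.1 CPM in cells with a member and 92.9 ± 17.9 CPM in the others (log2 change -1.80, SE 0.164, edgeR adjusted p = 1.53e-13). The mesoderm factor zfh1 stood at 27.8 ± 12.9 against 80.5 ± 15.5 CPM, and if, an integrin subunit of muscle, at 13.8 ± 4.97 against 40.2 ± 9.57 CPM. Act87E, at 12.7 ± 5.28 against 36.4 ± 7.58 CPM, belongs to the actin family, whose close copies can share reads, and its value is uncertain for that reason.

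**Figure D4:**
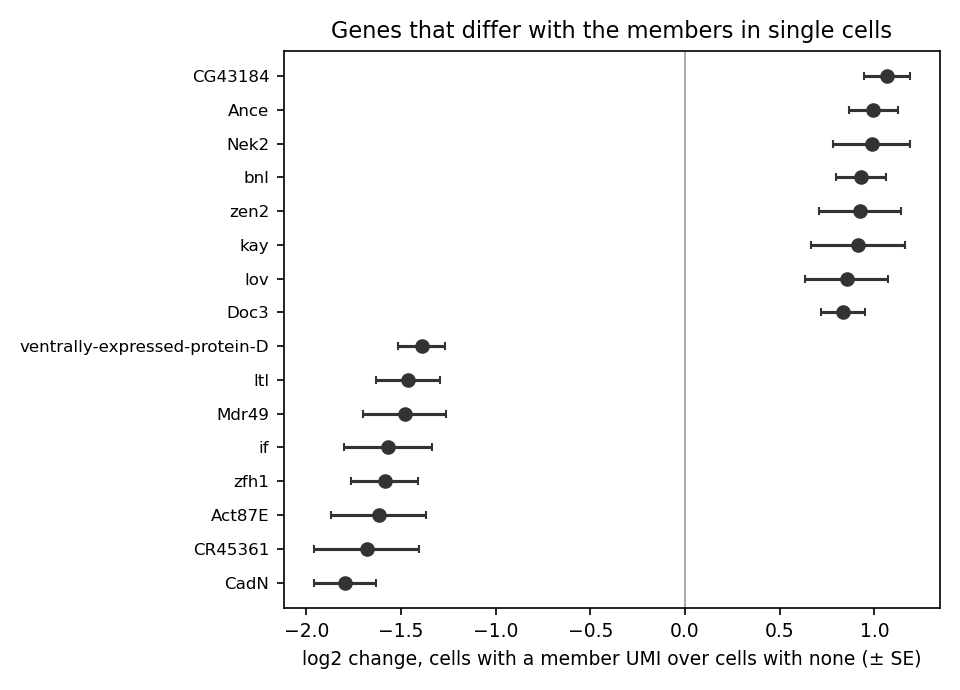
Log2 change with its standard error (edgeR) of the 16 named genes, in cells with a UMI of at least 1 member over cells with none, 7 libraries. The 8 higher genes lie between 0.83 and 1.06 and the 8 lower genes between -1.80 and -1.39.

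By marker list, 7 of 7 mesoderm markers were lower in cells with a member, for example twi at 56.5 ± 11.6 against 140 ± 16.3 CPM (log2 change -1.35, SE 0.120, edgeR adjusted p = 5.60e-14), with a list median of -1.35. Of 10 dorsal ectoderm and amnioserosa markers 6 were higher and none lower, with a median of 0.55, beside 0.01 over all genes. Of the 6, Doc2 and peb did not pass with DESeq2 (adjusted p = 0.232 and 0.685) or without the library block (0.172 and 0.741). Doc2 also did not pass without replicate 2, 3, 5 or 7 (adjusted p = 0.0521 to 0.208), nor peb without replicate 1 (adjusted p = 0.0533) or replicate 3 (log2 change 0.23, adjusted p = 0.717). The same held in edgeR for Doc2 without the filter (adjusted p = 0.0933) and for peb in sums of full counts (adjusted p = 0.423). None of 7 ventral neurogenic ectoderm markers passed. The 443 ventral and 699 dorsal cells of the gates are among the 5102 cells compared here. The 2 comparisons thus share cells and UMIs and do not support each other independently. The pole cell marker pgc was higher in cells with a member (log2 change 0.68, SE 0.108, adjusted p = 5.05e-06), but not past the threshold with DESeq2 (0.47, adjusted p = 1.00), without the library block (0.65, adjusted p = 0.360) or in sums of full counts (0.37, adjusted p = 0.203). It was lower when cells were chosen by halo alone (-1.01, SE 0.162, adjusted p = 1.41e-05).

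Of the other early zygotic genes 6 were tested, and Z600 alone passed, at 91.1 ± 15 CPM in cells with a member against 53.3 ± 4.99 (log2 change 0.73, SE 0.127, edgeR adjusted p = 2.86e-05). Among 18 furrow and cortex genes tested Nrt alone passed, at 920 ± 181.5 against 1131 ± 175 CPM (log2 change -0.35, SE 0.0438, adjusted p = 1.32e-08), and without the library block it did not (adjusted p = 0.186). In cells without any UMI of pgc, sna or twi, added after seeing the data, 71 genes passed, 52 of them also among the 138. Z600 did not pass there (log2 change 0.43, adjusted p = 0.124). Of the 16 named genes 10 could be tested in those cells, all 10 kept their direction and 8 passed. The named genes lov (edgeR adjusted p = 0.150) and zen2 (0.120) did not pass. Of the dorsal markers, Doc2 (adjusted p = 0.469) and peb (0.202) did not pass there, whereas Ance, Doc1 and Doc3 did.

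The genes most like halo from cell to cell, by the mean over libraries of the correlation of log counts in thinned cells, were CG13427, Tom and kek1. Their mean r was 0.155 ± 0.0129, 0.143 ± 0.0270 and 0.129 ± 0.0362 (SD, n = 7 libraries), positive in 7 of 7, among 5637 genes with a median of 0.00 and a 99th percentile of 0.0669. Tom belongs to the Bearded family of Notch pathway genes, and kek1 encodes an inhibitor of the epidermal growth factor receptor. The lowest value was that of twi, -0.111 ± 0.0147. These correlations describe sparse counts of cells that share a library, they are weak, and no p was computed. The other members, at 0.00157 (nullo) to 0.0110 (slam) UMIs per thinned cell, were below the 0.02 required.

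A pooled table of 1297 cells chosen by the authors, with a median of 20851 UMIs per cell, has column names that end in 1 of 11 numbers. What the numbers stand for is not given in the sources used here and they may come from clustering the same counts, so the levels are a description without a test. The pooled halo level was highest in cells of suffix 6, at 159 CPM (exact Poisson 95% interval 139 to 181, 52 cells), suffix 7, at 148 CPM (122 to 178, 34 cells), and suffix 5, at 125 CPM (111 to 141, 82 cells). It was lowest in suffix 4, at 14.1 CPM (11.7 to 16.8, 298 cells), and suffix 9, at 8.37 CPM (4.01 to 15.4, 48 cells). The remaining levels were 78.8 CPM for suffix 3 (632 cells), 68.0 for suffix 8, 63.0 for suffix 11, 58.5 for suffix 10 and 34.9 for suffix 2, and no halo UMI was found in the 4 cells of suffix 1, which allows up to 43.9 CPM.

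Suffix 6 was highest in all 10 dorsal ectoderm and amnioserosa markers, suffix 4 in 5 of 7 mesoderm markers (twi, sna, htl, Mef2 and stumps), suffix 9 in the other 2 of them (Ilp4 and zfh1), and the other lists were spread over several suffixes. Of 7 posterior terminal and gut markers fkh and apt were highest in suffix 7, byn and cad in suffix 8, hkb in suffix 2, srp in suffix 9 and Abd-B in suffix 11. Of 5 head markers ems and hbn were highest in suffix 5, oc and tll in suffix 10 and btd in suffix 9. By library halo stood at 129 ± 45.3 CPM (SD, n = 5) in suffix 6 and 16.9 ± 16.2 CPM (n = 7) in suffix 4, with ranges of 89.5 to 179 and 5.83 to 52.8 that did not overlap. Slam had 31 UMIs in suffix 3, 1.97 CPM (1.34 to 2.80), and 5 in suffix 4, 0.578 CPM (0.188 to 1.35). The highest bnk level with more than 3 UMIs was in suffix 2, at 4.15 CPM (1.35 to 9.69, 5 UMIs). The summed level of the 6 pole cell markers was at most 108 CPM in any suffix, beside 6130 ± 1413 CPM of pgc alone in the pole-cell gate.

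**Figure D5:**
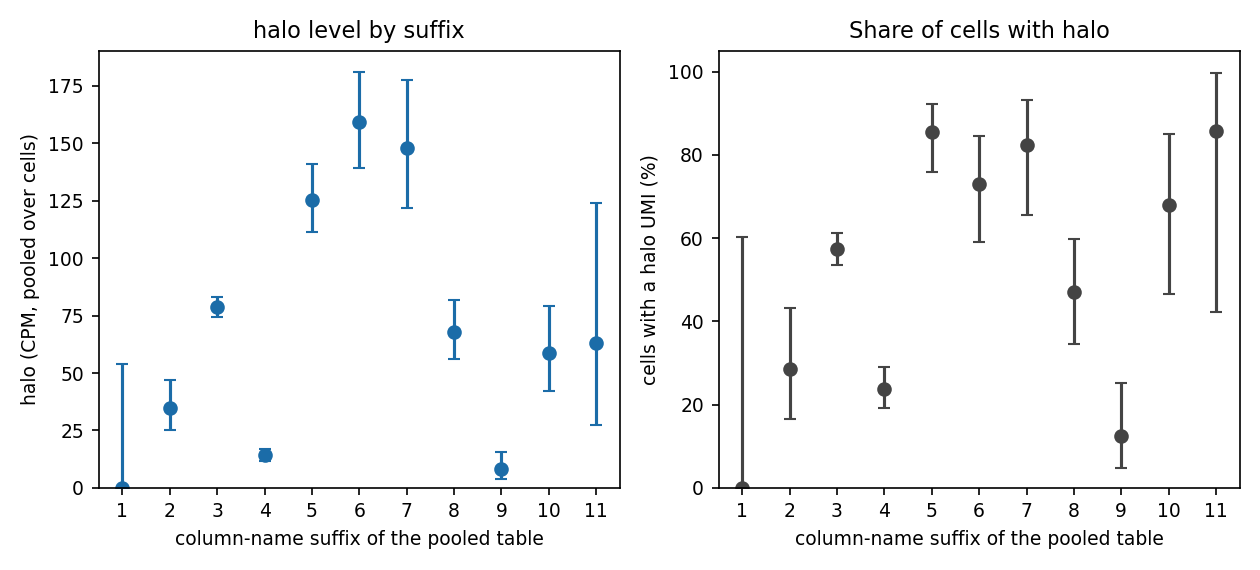
Level of halo in CPM (left) and share of cells with a halo UMI in percent (right) by column-name suffix of the pooled table, with exact Poisson and exact binomial 95% intervals that cover counting error only. Suffixes 5, 6 and 7 lie at 125 to 159 CPM and suffixes 4 and 9 at 14.1 and 8.37 CPM.

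Between the mixed-species and single-species libraries no member passed the test. The halo level was 65.2 ± 2.19 CPM (SD, n = 2) in mixed-species and 58.8 ± 4.68 CPM (SD, n = 5) in single-species libraries, which edgeR put at 0.18 on the log2 scale (SE 0.113, adjusted p = 0.967). For bnk the change was 0.28 (SE 0.352, adjusted p = 0.973) and for slam -0.12 (SE 0.360, adjusted p = 0.989), and nullo did not pass the filter. Of 8183 genes tested by edgeR none passed (0%). On simulated counts this comparison recovered 40 of 100 genes changed 2-fold and 97 of 100 changed 4-fold, so a 2-fold difference could be missed. The changed genes were drawn from all genes past the filter, with the same dispersion for every gene. These counts therefore do not describe genes as low as bnk and slam. At an unadjusted p under 0.05 in edgeR there were 387 of the genes tested, and 3 passed in DESeq2. Without replicate 3, 19 genes passed.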

How the data were processed

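The authors deposited unscaled UMI counts for each barcode of the 7 Drop-seq libraries, and read counts in the layout of htseq-count for bulk. The submitters' processing notes name STAR, HTSeq and the build BDGP6, without versions. In bulk, 45.2% of reads fell on no feature, 10.1% were not unique and 0.728% were ambiguous, and all were left out. The pooled table holds UMI counts the authors deposited for 1297 cells, all found in the library tables, and 1291 could be assigned to a library by their totals. Positions are from BDGP6.54, matched by symbol, which may not be the annotation behind the counts.

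CPM are over UMIs or reads on genes. Barcodes under 90% purity were left out as mixed, and doublets within a species were not called. Gates were read in cells thinned to 3000 UMIs with a fixed seed, and libraries with fewer than 5 cells in a gate were left out. Sums were tested by the two-sided quasi-likelihood test of edgeR 4.0.16 (R 4.3.3; TMM factors, filterByExpr; Benjamini-Hochberg over all genes, FDR 0.05; SE from the F statistic), with the library as a block except between kinds of library, and DESeq2 1.42.0 as an alternative. The fits were tested on simulated counts. Values came from Python 3.11.15, numpy 2.4.6, scipy 1.17.1 and pandas 2.3.3. Intervals are exact at 95% and the floor is 3 counts, and both cover counting error only.

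The members, gene lists, gates and tests were chosen with earlier results of these data known. Up to 8 genes per direction were named: those past the FDR with the largest log2 change, 1 direction in every library and at least 20 CPM in the higher group. That rule was written for cells with 2 or more members, of which there were 11, with at least 5 in 1 library. That comparison could not be fitted, and 1 or more members took its place. Alternatives were RLE scaling, no filter, DESeq2, no block, other depths and gates, and leaving out each library.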

Additional observations from a re-analysis of the deposited data

Results flagged for a closer look

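The D. virilis rows of the mixed-species tables, which enter no comparison above, hold a gene named Sry-alpha. It had 74 UMIs in 1864 D. virilis cells of replicate 1, 7.89 CPM (exact Poisson 95% interval 6.19 to 9.90), and 59 UMIs in 990 D. virilis cells of replicate 2, 6.25 CPM (4.76 to 8.07). A UMI was found in 3.22% and 4.24% of these cells. The D. melanogaster cells of the same libraries held 1 and 2 UMIs of it, in 1124 and 1106 cells. Among 14 sets of library values tested for a single sample far from the others, covering the level and share of each member in single-species libraries, halo in each gate and bnk in pole cells, none held such a sample.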

How the results depend on the processing

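The change of halo between ventral and dorsal cells and that of bnk in pole cells kept their direction and their call under every alternative run, from -2.89 to -2.71 and from 4.03 to 4.44 when each library was left out. Counts of genes called moved by more than 1.5 times as follows: between ventral and dorsal cells 873 with DESeq2, 933 without the block, 458 in thinned sums and 607 with 2 UMIs of a gating gene (1510 in the report). Between posterior and anterior cells they were 142 without the filter and 7 in thinned sums (51). For cells with a member they were 85 with DESeq2, 45 without the block, 259 in full counts, 265 at 5000 UMIs and 71 without pgc, sna or twi (138), and for the kinds of library 29 without the filter and 3 with DESeq2 (0). Leaving out each library gave 1236 to 1410, 39 to 59, 2309 to 2721, 109 to 136 and, for the kinds of library, 0 to 19 genes.

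The share of cells with a UMI follows the depth: for halo it was 7.5% at 1500 and 20.6% at 5000 UMIs and 2.67% with 2 UMIs required, for slam 0.202% and for bnk 0.0568% with 2 UMIs required, for bnk 0.398% at 1500 and for nullo 0.374% at 5000. With a pseudocount of 0.1 the log2 ratio of slam to bulk was -1.94. Directions that turned were pgc in cells chosen by halo alone (-1.01) and, between the kinds of library, slam with cells of at least 3000 UMIs (0.0731). Leaving out each library gave -0.74 to 0.24 for slam and -0.31 to 0.63 for bnk, neither called. Of the tested single-gene values under other settings, 472 kept direction and call, 37 lost their call, 1 gained it and 5 turned; the cause was not tested. Posterior and anterior gates with 2 UMIs of a gating gene left no library with 5 cells and were not run. Gates and cells with or without a member were compared within libraries, through the library block; the mixed-species and single-species libraries share no replicate numbers and were not paired. Depth limits nullo, slam and bnk most, with 36 to 192 UMIs each.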

Other observations

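Cells with several UMIs of a furrow gene were few. In all, 9 cells held 4 or more UMIs of slam, bnk or nullo, a minimum chosen after the values were seen. Of these 5 were rich in bnk (4 or 5 UMIs, no slam) and had 31, 87, 140, 213 and 389 pgc UMIs. The remaining cells were rich in slam and had 0 to 3 pgc UMIs: a cell of replicate 2 with 3283 UMIs in all held 7 slam, 6 bnk and 5 halo UMIs, and a cell of replicate 4 with 2506 UMIs held 11 slam, 2 bnk and 1 halo UMI. The other two, of replicate 6, had 5 and 7 slam UMIs, no bnk and at most 1 halo UMI. No nullo UMI was found in these 4 cells.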
